A study of Mus musculus with 4 samples.

Results

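The genes described here carry the symbols of proteins of the cytosolic ribosome, though not all of them encode one, as with Rps4y2 below. They were taken from the array by symbol, as Rpl or Rps followed by a number, with Rplp0, Rplp1, Rplp2 and Rpsa added, and they came to 85 of the 24185 gene symbols on the array. By symbol, 51 of these genes belonged to the large subunit and 34 to the small subunit. They were measured by 192 distinct 60-base probes on 201 spots. RNA immunoprecipitation followed by microarray (RIP-microarray) had been used to ask which brain mRNAs are bound by CPEB2. Corticohippocampal lysate from male C57BL/6 mice aged 8 weeks was split between beads carrying CPEB2 IgG and beads carrying control IgG, and the RNA left on the beads was amplified, labelled with Cy3 and hybridised. There were 2 independent experiments with 1 array for each antibody, so n = 2 for CPEB2 IgG and n = 2 for control IgG. No genetic change is given for these mice in the labels, and the number of mice per lysate was not given in the sources used here. The labels call the antibody CP2 IgG in the titles and CPEB3 IgG in a description field, and the methods of the study call it CPEB2 IgG, the name used here. The values compare 2 antibodies on the same lysate. They therefore show what was left on the beads and not how much of an mRNA the tissue held, and fewer cells of a type cannot be told apart from less RNA per cell.

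CPEB2 is a cytoplasmic RNA-binding protein that recognises the cytoplasmic polyadenylation element (CPE), a short U-rich motif in the untranslated end of an mRNA, and controls its translation. The cytosolic ribosome decodes mRNA on its small subunit and forms peptide bonds on its large subunit. Its proteins are needed in matched amounts, and their mRNAs are short, abundant and housekeeping in nature, with a pyrimidine tract at their start (5′TOP) through which mTOR signalling controls them as a group. In neurons these mRNAs are also found in axons and dendrites, where new ribosomal proteins can be made. Mammalian genomes hold many processed copies of ribosomal protein genes, so a short probe can match more than 1 place.

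The probes themselves show this. For each of the 5 members with the highest antibody difference, 30 bases of a probe are set against the same stretch of a probe that the array lists under another name. Capitals mark bases that both probes share at that place, and lower case marks bases that differ. The positions are those of the whole probe on mm9 in the array annotation, and whether they are coding or untranslated was not analysed here.
Rps27 (chr9:114891517-114891576, minus strand): AGATGAGTGGGAACCTTCCCAATAAACACg
unnamed probe A_55_P2161818 (chr3:104718767-104718826, minus strand): AGATGAGTGGGAACCTTCCCAATAAACACa
Rpl34 (chr3:130429830-130431677, minus strand, spanning an intron): AAGcGGGCTTTCCTTATTGAGGAGCAGAAA
Gm6404 (chr13:116944244-116944303, plus strand): AAGgGGGCTTTCCTTATTGAGGAGCAGAAA
Rpl22 (chr4:151706515-151706574, plus strand): CGAgGATTAGGACACATTGGTCTGCAATGT
LOC101055799 (chr11:14062438-14062497, plus strand): CGAaGATTAGGACACATTGGTCTGCAATGT
Rps28 (chr17:33960058-33960197, minus strand): GTCAGAAAGAGAAGCTCGAAGGTTGCGTTg
ENSMUST00000085163 (chr17:33960143-33960202, minus strand): GTCAGAAAGAGAAGCTCGAAGGTTGCGTTa
Rpl30 (chr15:34371013-34371072, minus strand): TACaGTGGCAATAATATTGAACTGGGCACA
Gm6109 (chr13:94218656-94218715, plus strand): TACcGTGGCAATAATATTGAACTGGGCACA
The Rps28 pair lies in overlapping positions of the same stretch of chromosome 17, and the other pairs lie apart. Where a copy is transcribed, RNA of the gene and of the copy could both bind such a probe, and they cannot be told apart here. Whether the copies are transcribed was not tested.

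Of the 85 genes, 84 had a probe well above background on at least 2 arrays and entered the test, 82 of them on all 4 arrays. Rpl39l was not well above background on any array. Each gene was represented by its brightest probe, and the 75th percentile of its array was subtracted from every log2 signal. With CPEB2 IgG, 33 of the 84 genes were below their control IgG level at an adjusted p under 0.05 in limma (39.3%), where 20.4% of all 19695 genes tested were lower. By the same criterion 14 genes were higher (16.7%), where 21.2% of all genes were higher. The other 37 did not pass. With quantile normalization 16 were higher and 24 lower. The median log2 fold change of the members was −0.68, that is 1.60-fold lower with CPEB2 IgG, beside −0.11 for all genes. It was −0.74 in experiment 1 and −0.60 in experiment 2, and it was below 0 under each scaling tried. Of the members, 55 were below 0 in both experiments (65.5%, where 43.2% of all genes were). Another 20 were above 0 in both (23.8%, where 36.5% of all genes were), and 9 changed sign.

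The family did not move as a block. Its log2 fold changes ran from −1.80, for the noncoding Rps4y2, to 2.44 with an SD across genes of 1.01. The next lowest member was Rpl6 at −1.61. All genes tested ran wider, from −4.32 to 5.40 with an SD of 1.21. The 2 experiments differed by a median of 0.27 for a member and 0.39 for a gene of the whole array. On the scaled values the CPEB2 IgG and control IgG arrays did not overlap in 53 members that were lower and in 19 that were higher, beside 38.2% and 33.7% of all genes. The cumulative curves of both subunits lay to the left of that of all genes over most of their length and joined it at the top, where Rps27, Rpl34, Rpl22, Rps28 and Rpl30 stood.

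**Figure D1:**
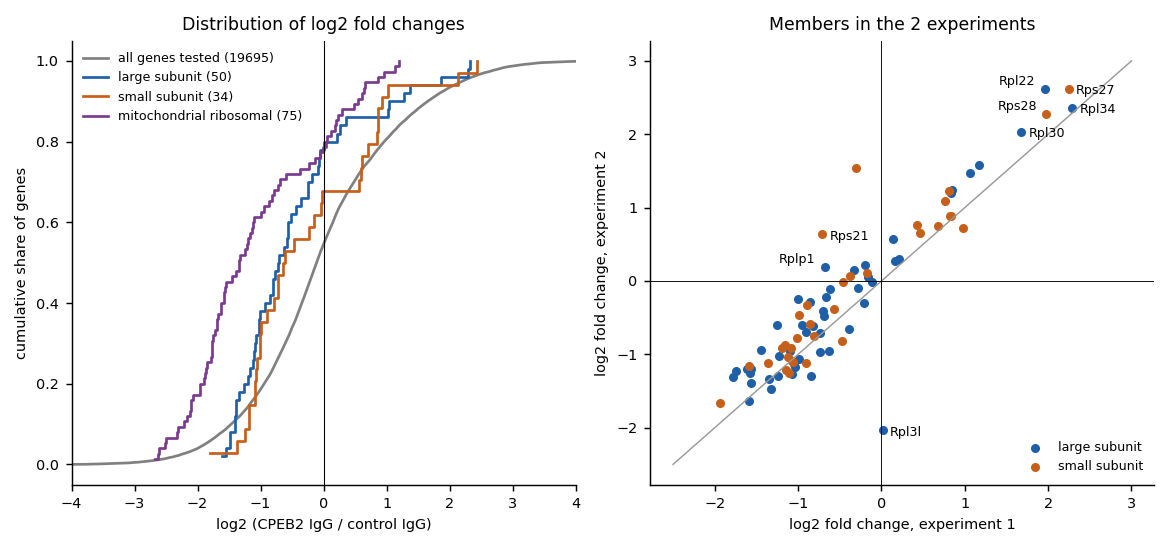
Left, cumulative share of genes (y axis) by log2 fold change of CPEB2 IgG over control IgG (x axis) for all 19695 genes tested, 50 large subunit genes, 34 small subunit genes and 75 mitochondrial ribosomal protein genes. Right, log2 fold change of each member in experiment 1 (x axis) and experiment 2 (y axis), with the line of equal values; Rps21 and Rpl3l lie far from it.

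The large and the small subunit gave similar medians. The median was −0.72 over 50 large subunit genes and −0.63 over 34 small subunit genes, a difference of −0.09 that was 0.02 in experiment 1 and −0.18 in experiment 2. Members are not replicates, so this difference has no test, and it was smaller than its own change between experiments. Large subunit genes gave 20 lower and 7 higher calls. Small subunit genes gave 13 lower and 7 higher calls. The upper quartiles differed more than the medians, at −0.07 in the large subunit and 0.61 in the small subunit.

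The highest values belonged to 5 genes. Rps27 encodes a zinc finger protein of the small subunit. Its signal was 335190 and 370124 with CPEB2 IgG, against 74644 and 61142 with control IgG. Rpl34, of the large subunit, gave 361496 and 326275 with CPEB2 IgG, against 78206 and 64379 with control IgG. For both genes the CPEB2 IgG arrays lay far above the control IgG arrays. The log2 fold change of Rps27 was 2.44 ± 0.25 (limma SE, n = 2 arrays per antibody, adjusted p = 0.00542). That of Rpl34 was 2.33 ± 0.23 (limma SE, adjusted p = 0.00542).

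Rpl22, a large subunit protein that can be lost without loss of the ribosome and that binds other RNAs, gave 88328 and 109154 with CPEB2 IgG, against 24059 and 18100 with control IgG. Rps28, of the small subunit, gave 301818 and 320332 against 81394 and 67111. Rpl30, a large subunit protein whose yeast counterpart binds and regulates its own transcript, gave 122963 and 134748 against 40715 and 33365. No array of either antibody overlapped the other antibody's arrays for these genes. Their log2 fold changes were 2.29 ± 0.28 for Rpl22 (limma SE, adjusted p = 0.00636), 2.13 ± 0.24 for Rps28 (adjusted p = 0.00596) and 1.86 ± 0.24 for Rpl30 (adjusted p = 0.00718). Below Rpl30 came a gap of 0.48 to the sixth gene.

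The other 9 genes called higher lay between 0.85 and 1.38. Rpl27a gave 125989 and 152720 with CPEB2 IgG, against 59400 and 51820 with control IgG, and its log2 fold change was 1.38 ± 0.25 (limma SE, adjusted p = 0.0143). Rpl23a, which lines the exit of the peptide tunnel, gave 45837 and 53302 against 23219 and 19494, with a log2 fold change of 1.27 ± 0.25 (adjusted p = 0.0175). Rplp2, an acidic stalk protein that helps to recruit elongation factors, gave 141996 and 167462 against 83620 and 72297. Rpl35a gave 94432 and 106314 against 55981 and 46957, and Rps7 gave 61114 and 80214 against 36953 and 34862. Mutations of the human counterparts of both cause Diamond-Blackfan anaemia. Every CPEB2 IgG array was above every control IgG array for these genes. The log2 fold changes were 1.04 ± 0.25 for Rplp2 (limma SE, adjusted p = 0.0287), 1.02 ± 0.24 for Rpl35a (adjusted p = 0.0297) and 1.02 ± 0.25 for Rps7 (adjusted p = 0.0314).

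Others close to the threshold were the small subunit genes Rps27l, Rps13 and Rps2. Rps27l, the paralogue of Rps27 and a p53 target, gave 5373 and 5471 with CPEB2 IgG, against 3353 and 2608 with control IgG. Rps13 gave 64926 and 65423 against 38838 and 35966. Rps2, a protein at the mRNA entry channel, gave 95763 and 83508 against 51403 and 51557. The groups did not overlap in any of these. The log2 fold changes were 0.93 ± 0.24 for Rps27l, 0.86 ± 0.23 for Rps13 and 0.85 ± 0.24 for Rps2 (limma SE), with adjusted p from 0.0372 to 0.0447. With the 75th percentile taken over probes detected on all arrays, Rps13 and Rps2 were no longer called. With no filter on dim probes, which adds genes near background to the test, the 5 highest genes were called and the other 9 were not. Calls of higher over all genes fell there from 4174 to 2265.

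**Figure D2:**
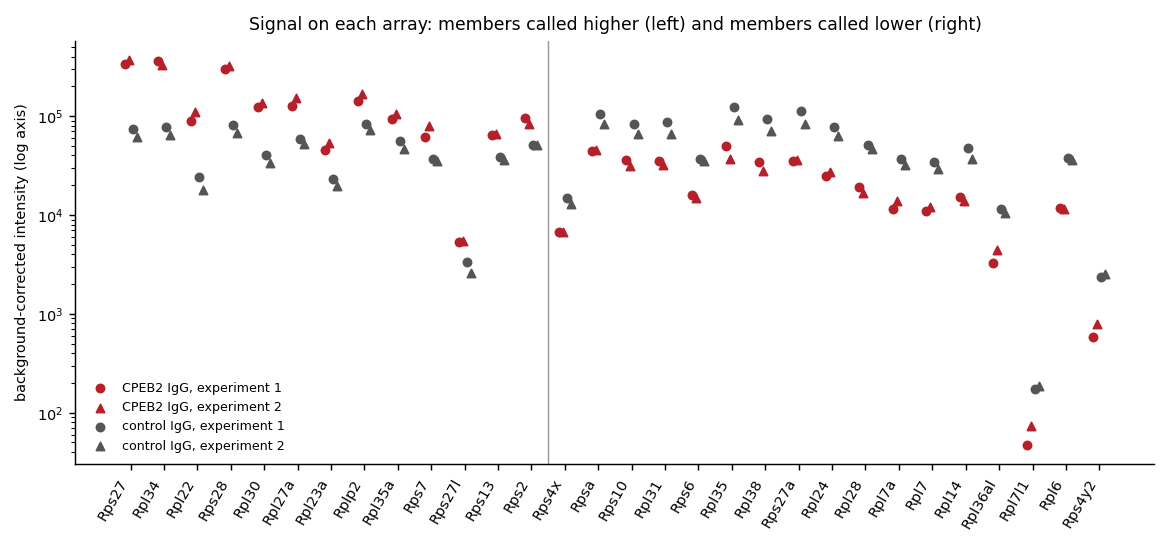
Background-corrected intensity (y axis, log scale) on each of the 4 arrays for 13 members called higher (left) and the members called lower that the text names (right). Each point is 1 array, and in every gene drawn the 2 CPEB2 IgG points lie on the same side of the 2 control IgG points.

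The lowest values belonged to Rps4y2, Rpl6, Rpl7l1, Rpl36al and Rpl14. Rps4y2 is the array's name for a noncoding transcript that RefSeq now lists as Rps4l. Its signal was 579 and 783 with CPEB2 IgG, against 2350 and 2531 with control IgG, and its log2 fold change was −1.80 ± 0.24 (limma SE, adjusted p = 0.00722). Rpl6 gave 11895 and 11372 against 37777 and 35940, with a log2 fold change of −1.61 ± 0.23 (adjusted p = 0.00828). Rpl7l1, a paralogue of Rpl7 with a role in ribosome assembly, had a dim probe that gave 47.4 and 73.8 against 172 and 187. Rpl36al gave 3257 and 4412 against 11528 and 10462. Rpl14 gave 15192 and 13927 against 47740 and 37081. All CPEB2 IgG arrays were below all control IgG arrays for these 5 genes. The log2 fold changes were −1.55 ± 0.25 for Rpl7l1 (limma SE, adjusted p = 0.0111), −1.48 ± 0.26 for Rpl36al (adjusted p = 0.0131) and −1.48 ± 0.23 for Rpl14 (adjusted p = 0.0102). The remaining 28 genes called lower lay between −0.80 and −1.41. They included Rpl7, Rpl7a, Rpl28, Rpl24 and Rpl38, the last known for a selective role in the translation of Hox mRNAs. They also included Rps6, the S6 kinase substrate, at −1.18 ± 0.23, with 15922 and 14739 with CPEB2 IgG, against 37227 and 34851 with control IgG. With no filter on dim probes 7 of the 33 genes were called lower, and calls of lower over all genes fell from 4021 to 1837.

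**Figure D3:**
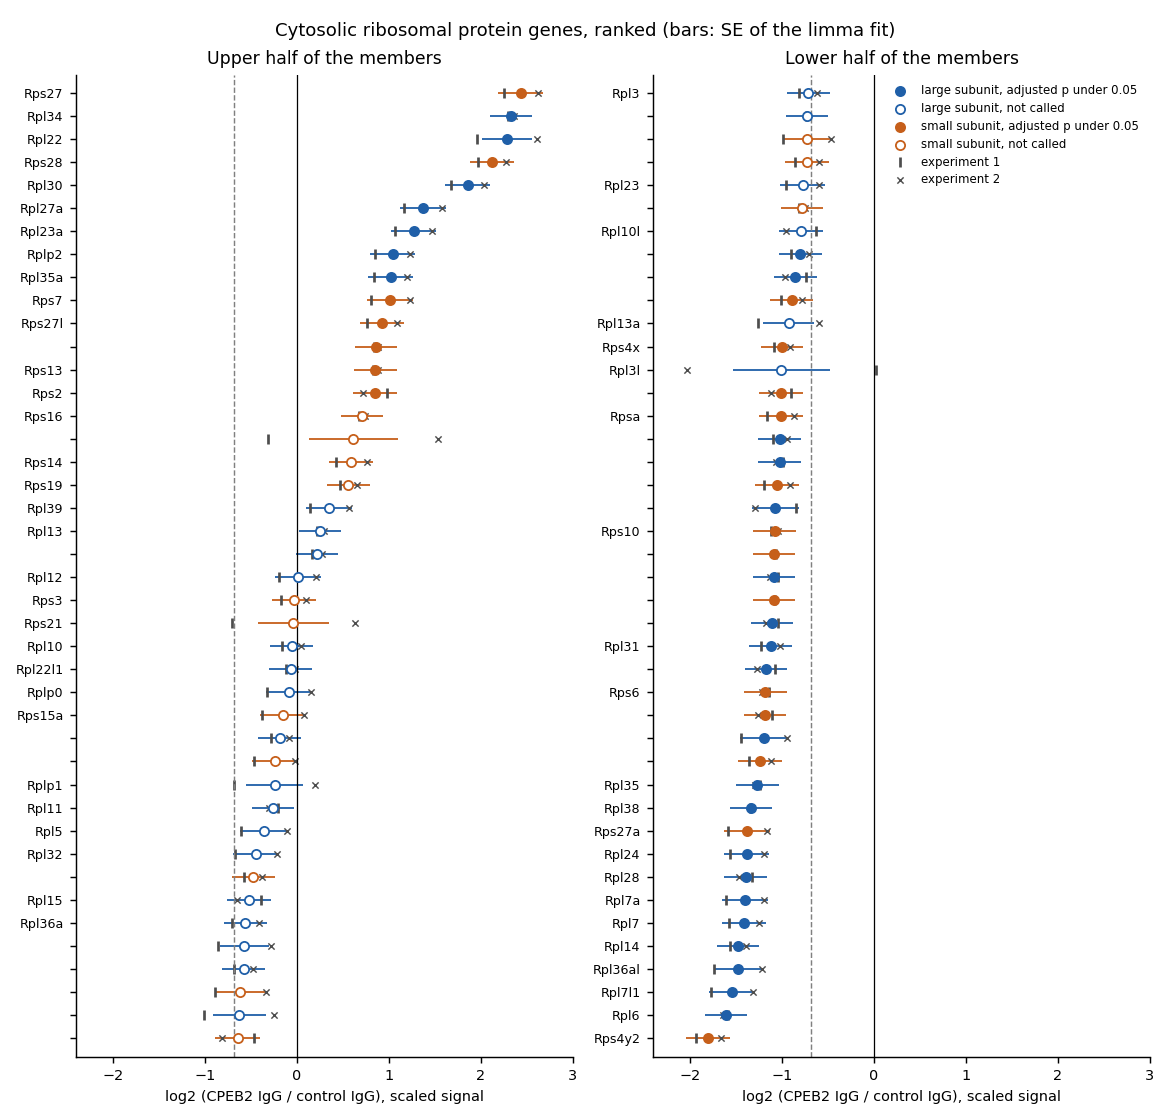
Log2 fold change of CPEB2 IgG over control IgG (x axis) for the 84 members tested, ranked, with the SE of the limma fit as bars, each experiment marked and the members that the text names labelled. Filled points passed an adjusted p of 0.05; the dashed line is the family median of −0.68, and the 14 filled points to the right of 0 stand against 33 to the left.

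Each member was next set against the family rather than against all genes. Each array was centred on the median level of its 84 members, which shifted every difference by the same amount because that median was itself lower by 0.43 with CPEB2 IgG. This reference of −0.43 is not the median log2 fold change of the members, −0.68, which lies below it. Departures are therefore measured from −0.43, which makes it easier to be below the family and harder to be above it. After this, 17 members were above the family (20.2%, where 30.3% of all genes were above it) and 13 were below it (15.5%, where 11.5% of all genes were). The 17 were the 14 genes called higher together with Rps16, Rps14 and Rps19. Rps16 gave 144505 and 137677 with CPEB2 IgG, against 95967 and 83477 with control IgG, a departure of 1.14 (adjusted p = 0.0169 in limma). Rps19, the gene most often mutated in Diamond-Blackfan anaemia, gave 27530 and 29988 against 21089 and 19386, a departure of 0.99 (adjusted p = 0.0263 in limma). Rps14, a platform protein, gave 224842 and 242189 against 177786 and 145425 and departed by 1.02 (adjusted p = 0.0257 in limma). Before this centring, the SD of the log2 fold change between the 2 experiments was 0.05 for Rps16, 0.13 for Rps19 and 0.24 for Rps14. For all 3 the arrays of the antibodies did not overlap, yet against all genes their adjusted p lay between 0.0654 and 0.119. All 13 members below the family were also called lower, and 10 of them belonged to the large subunit. Because the centring added 0.43 to every difference, a gene called higher could hardly fail to be above the family. A member below the family could likewise hardly fail to be called lower. These overlaps follow from the shift and are not a result.

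Some members were close to 0 or unsettled between experiments. Rpl12, Rps3, Rpl10, Rpl22l1 and Rplp0 lay between −0.09 and 0.01 and their arrays overlapped on the scaled values. Rps21 gave 23521 and 53642 with CPEB2 IgG, against 40758 and 35126 with control IgG, so its log2 fold change was −0.71 in experiment 1 and 0.63 in experiment 2.

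Members that work together in the ribosome did not share a value. These groups were chosen after the values had been seen. In the stalk, Rplp2 was higher, whereas Rplp0, Rplp1 and Rpl12 lay between −0.24 and 0.01. Rpl5 and Rpl11, which bind 5S rRNA and Mdm2, were at −0.36 ± 0.26 and −0.26 ± 0.23 (limma SE) and were not called. The 7 genes around the exit of the peptide tunnel ran from −1.27 for Rpl35 to 1.27 for Rpl23a, with 1 called higher and 3 lower. Of 9 genes picked from those known from Diamond-Blackfan anaemia, Rpl35a and Rps7 were higher, Rps10 was lower at −1.08 ± 0.23, and the other 6 were not called. These 9 are not a full list of such genes, so the counts do not describe the disease genes as a set. Rps27a, made as a fusion with ubiquitin, and Fau, made as a fusion with a ubiquitin-like protein, were both called lower. Rps27a gave 35054 and 36296 with CPEB2 IgG, against 111906 and 82451 with control IgG and its log2 fold change was −1.38 ± 0.25. Fau, whose symbol fell outside the choice of members, gave 50565 and 36265 against 139229 and 112780 and was at −1.50 ± 0.24 (limma SE, adjusted p = 0.0102).

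Probes of the same gene mostly gave the same answer. Among 62 members with at least 2 probes tested, the median spread between the highest and the lowest probe was 0.21 on the log2 scale, and 40 members had a spread under 0.3. Over all 5548 genes with at least 2 probes the median spread was 0.79. Of these, 53 that are not members reached the median level of these members, and their median spread was 0.16. By probe, 22 of 189 member probes were called higher (11.6%, where 12.7% of all probes were) and 57 lower (30.2%, where 14.8% of all probes were). Of the 31 probes of the genes called higher, 30 were above 0 and 20 were called higher themselves. Of the 73 probes of the genes called lower, 71 were below 0 and 57 were called lower. Each gene's brightest probe, on which its call was made, is in these counts. The signs of those 14 and 33 probes were therefore fixed by the call, and only the further probes bear on agreement. No member had probes called in opposite directions. The 4 probes of Rps27 lay between 2.43 and 2.68, and the 4 probes of Rpl7 between −1.50 and −1.37. Probes of a gene can overlap in sequence and are then not independent of each other. In 19 genes, 23 pairs shared at least 20 bases, with a median absolute difference of 0.07. Among them were pairs of Rps27 probes sharing 44, 48 and 52 bases and a pair of Rpl7 probes sharing 47. The 94 other probes that reached a signal of 1000 differed from the brightest probe by a median of 0.13, and the 11 dim ones by 0.67. On the array, 1 probe of Rpl23 was spotted 10 times. Its spots gave 1024 ± 38.9 and 1041 ± 26.8 with CPEB2 IgG, against 1960 ± 77.5 and 1750 ± 62.8 with control IgG (SD over 10 spots), a coefficient of variation of 2.58% to 3.95%. This is the spot-to-spot error of that probe alone and leaves out the spread between samples.

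**Figure D4:**
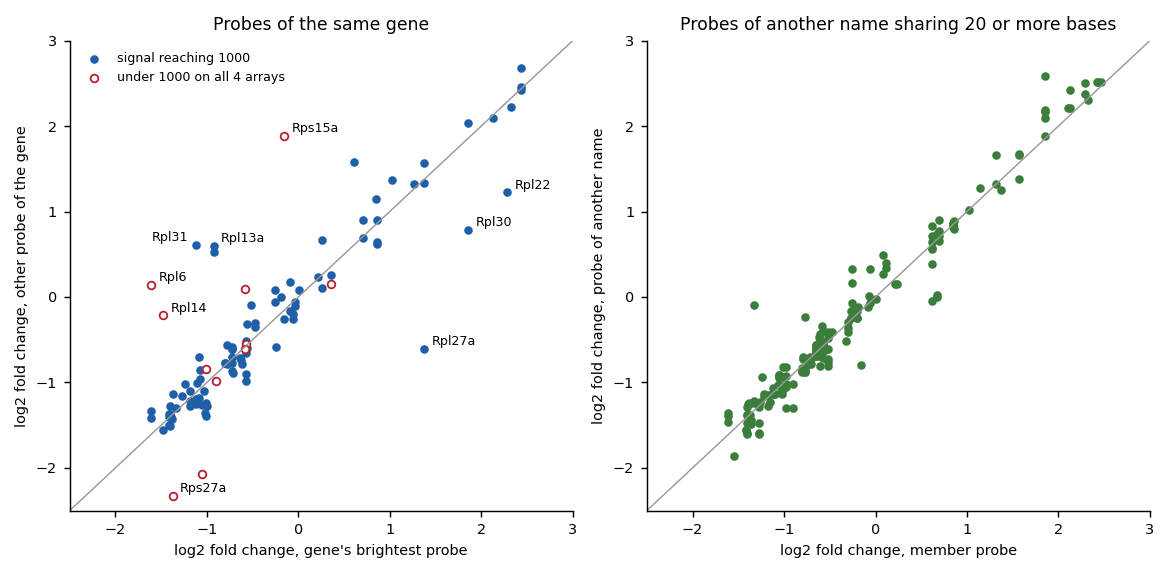
Left, log2 fold change of each further probe of a member (y axis) against that of its gene's brightest probe (x axis), with open points for probes under 1000 on all 4 arrays. Right, log2 fold change of probes listed under another name (y axis) against that of the member probe with which they share at least 20 bases (x axis); the line marks equal values, and 163 of 188 pairs on the right lie within 0.25 of it.

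In 5 genes the probes spread most, and in each of them 1 or more probes stood apart. In Rpl27a, 3 probes lay between 1.34 and 1.57, and the remaining one, at chr7:116665756-116665815 on mm9, downstream of the brightest, gave 7337 and 6480 with CPEB2 IgG, against 11799 and 10024 with control IgG, a log2 fold change of −0.60 ± 0.28 (limma SE, adjusted p = 0.164). In Rpl31, 3 probes lay between −1.26 and −1.12, and the remaining one gave 836 and 1138 against 678 and 646, at 0.61 ± 0.29 (adjusted p = 0.180). Its sequence shares 48 bases with the opposite strand of a probe for Tbc1d8, which was at 0.30. In Rps15a a probe at chr7:125248322-125248381 was dim, at 136 and 456 against 61.4 and 79.2, and at 1.89 ± 0.40 it was called higher (adjusted p = 0.0232), whereas its other probes lay at −0.25 and −0.15. In Rpl6 the apart probe was dim, though well above background on all 4 arrays, at 59.7 and 59.2 against 50.9 and 61.6. In Rpl13a the brightest probe was at −0.93 and the other 2 at 0.53 and 0.60, none of them called. The 2 with the positive values hold CPE letters, as shown further on. A dim probe of Rps27a was not well above background on either CPEB2 IgG array, at 9.0 and 6.93 against 37.5 and 44.9 with control IgG, and its RNA was at least 2.40-fold higher with control IgG (adjusted p = 0.00872 over all probes), taking the lowest signal well above background as the level on the CPEB2 IgG arrays.

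Probes of another name that match a member tracked it closely. A stretch of at least 20 bases was shared by 90 member probes, of 52 genes, with 162 probes listed under other names, most of them predicted genes, pseudogenes or unnamed transcripts. Over 188 such pairs with a value the median absolute difference was 0.08, 163 pairs lay within 0.25 and 8 differed by more than 0.5. The 29 matching probes of the genes called higher ran from 0.56 to 2.59, and 18 of them were called higher. Of the 48 matching probes of the genes called lower, none was above 0 and 35 were called lower. The copies printed above gave 2.52 for the Rps27 copy, 2.30 for Gm6404, 2.38 for LOC101055799, 2.21 for the second Rps28 probe and 1.88 for Gm6109. Each of these lay within 0.2 of its member probe. The array annotation itself placed 24 of 185 member probes on another chromosome than the one RefSeq gives for the gene, among them all 4 probes of Rps27, put on chromosome 9 where RefSeq has the gene on chromosome 3. Since their sequences are partly the same, the values of such pairs are not counted as independent of each other, and binding of 1 RNA to both probes was not tested.

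Paralogues, which share at most 8 bases in a row between their probes, could be told apart. Rpl22l1 was at −0.07 ± 0.23 (limma SE, adjusted p = 0.836), with 14743 and 16681 with CPEB2 IgG, against 16913 and 17182 with control IgG, where Rpl22 was at 2.29. Rps27l was at 0.93 where Rps27 was at 2.44, a difference of −1.49 in experiment 1 and −1.53 in experiment 2. Rpl36al was at −1.48 where Rpl36a, at −0.56 ± 0.24, was not called. Rps4y2 was at −1.80, and Rps4x, with 6657 and 6805 against 14993 and 13010, was also called lower. Rpl7l1 and Rpl7 were close, at −1.55 and −1.41. Rpl39 was at 0.35 ± 0.25 and was not called, and its paralogue Rpl39l gave no value. Rpl3l, a paralogue known from muscle, was near background with 21.0 and 7.45 against 21.9 and 31.0, and Rpl3 was at −0.72 ± 0.23 and was not called. Rpl10l, known from testis, was not well above background on either CPEB2 IgG array, with 12.6 and 11.1 against 20.7 and 22.0, and did not pass (adjusted p = 0.0552). Rpl10 was at −0.06. The differences between paralogues were not tested.

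The letters of the CPE, TTTTAT or TTTTAAT on the sense strand of the probe, were looked for in the probes, because CPEB2 recognises this motif. They were found in 6 of 192 member probes (3.13%) and in 1731 of 33256 probes of named genes (5.21%). A 60-base probe covers only part of an mRNA, so the absence of the letters says nothing of the rest of it. The 6 stretches are given with the motif in capitals, because they are the members in which the motif can be seen.
Rpl13a (chr7:52380920-52380948, minus strand): cacctgcttgagTTTTATtaaagtgcaaac
Rpl13a (chr7:52381146-52381205, minus strand): acctgcatgagtTTTTATtaaagtgcaaac
Rpl15 (chr14:19100588-19100647, minus strand): acttaaccacacTTTTATttctatttgtgc
Rpl32 (chr6:115755538-115755597, minus strand): cttgtgtgcatgTTTTATgtttaaataaaa
Rplp2 (chr7:148637182-148637241, plus strand): ctgctcccctgcaaataaagtctTTTTATg
Rps27a (chr11:29445914-29445973, minus strand): tggtgctggagtTTTTATgggaagccactt
The 6 probes had no common direction. Those of Rpl13a gave 5483 and 5981 with CPEB2 IgG against 4407 and 3505, and 5846 and 6588 against 4860 and 4099. The Rpl15 probe gave 2469 and 2395 against 2665 and 2725. On the log2 scale the 6 were at 0.60, 0.53, −0.09, −0.44, 1.04 and −1.38 in the order printed, and of these Rplp2 was called higher and Rps27a lower. None of the 5 highest members held the letters in its probes.

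The study took as targets mRNAs enriched by more than 1.5 times with raw signals over 1000, besides a CPE. With the fold and signal criteria alone, the fold taken as a mean of both experiments, 20 of the 85 genes passed on at least 1 probe (23.5%), where 17.4% of all genes passed. They included the 14 genes called higher together with Rps14, Rps16, Rpl13, Rpl13a and Rpl31. With the criteria mirrored for control IgG, 45 genes passed (52.9%, where 14.5% of all genes did). The shares of all genes are over the 19695 tested. Members carried 192 probes for 85 genes, against 33256 probes for 24185 gene symbols, and most were far brighter than the signal threshold. Brighter genes with more probes pass more easily in either direction, so these shares do not compare like with like. Rpl13a, Rpl27a and Rpl31 passed both ways, each through a different probe.

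Other genes of the translation machinery are given for comparison. Of 75 mitochondrial ribosomal protein genes tested, 4 were higher and 50 lower, with a median of −1.34. They ran from Mrpl15 at −2.68 ± 0.24 to Mrps16 at 1.20 ± 0.24 (limma SE), and their median lay 0.66 below that of the cytosolic family. Of 19 further 5′TOP genes, 1 was higher and 8 were lower, with a median of −0.59 that was −0.73 in experiment 1 and −0.45 in experiment 2. Pabpc1, the cytoplasmic poly(A)-binding protein, was at 2.48 ± 0.27 (limma SE, adjusted p = 0.00575) and Eif3k at −2.03 ± 0.23 (adjusted p = 0.00600). Of 31 ribosome assembly genes, 3 were higher and 16 lower, with a median of −1.05, from Nop2 at −2.53 ± 0.23 to Rrs1 at 2.20 ± 0.27 (limma SE). Gnb2l1, which encodes the small subunit protein RACK1, was at −0.39 ± 0.25 and was not called.

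Across the 84 members the antibody difference was set against probe composition and signal level. Spearman's rho was 0.04 with the GC content of the probe and 0.08 with the control IgG level. It was 0.47 with the mean level of all 4 arrays, which includes the CPEB2 IgG arrays. The control IgG level enters the difference with a minus sign, which pulls its rho down. The value of 0.08 therefore does not show that the difference is free of signal level. These are over 84 genes measured on the same 4 arrays and are given as a description. The median probe GC content was 44.2% for the genes called higher, 43.3% for those called lower and 45.0% for those not called.

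The CPEB2 IgG arrays were dimmer than the control IgG arrays, that of experiment 2 most. Between 68.4% and 74.1% of spots passed the background flag, saturation was seen on none, and median signals were 68.1 and 59.0 for CPEB2 IgG against 75.8 and 76.5 for control IgG. Cpeb2 itself was at 2.89 ± 0.25 (limma SE, adjusted p = 0.00542), with 2410 and 1877 with CPEB2 IgG, against 299 and 297 with control IgG. Gapdh, often taken as a non-target, was at −2.52 ± 0.25 (adjusted p = 0.00542). All 8 neuron markers were detected, with 1 lower and none higher, from Tubb3 at −1.50 to Syt1 at 0.41, and their summed signal was 132070 and 129292 against 146220 and 142276. All 6 hippocampal and cortical markers were detected, with 1 higher and none lower, a median of 0.57 and Wfs1 the lowest at −0.50. The 7 astrocyte markers gave 3 higher and 3 lower, from Aldh1l1 at −3.77 to Slc1a3 at 3.44. The 6 microglial markers gave 1 higher and 3 lower, from Aif1 at −2.64 to P2ry12 at 2.30. The 6 oligodendrocyte markers gave 3 lower, with Cnp the lowest at −1.96 and a median of −0.30. Blood markers gave 1 lower of 4, Hba-a1 at −1.28, the highest being Hbb-b1 at −0.46. Endothelial markers gave none of 3 detected, from Cldn5 at −0.36 to Pecam1 at 0.14. Of the 4 liver markers Alb and Apoa1 were not detected, Ttr, in brain a product of the choroid plexus, was at −0.31 and Afp, above background on 3 arrays, was at 2.04. The Ttr signal was 6966 and 291 with CPEB2 IgG in experiments 1 and 2 and 11608 and 289 for control IgG, so it differed far more between the experiments than between the antibodies. The part of these markers in the values of the ribosomal protein genes was not tested.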

How the data were processed

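RNA from 2 CPEB2 IgG and 2 control IgG immunoprecipitates was measured on 1-colour Agilent SurePrint G3 mouse arrays of 1 slide. The authors deposited the scanner output, from Agilent Feature Extraction 10.5.1.1 per the file headers, whose values are spot intensities corrected for background within the array and not normalized between arrays. Flags of the software mark spots well above background or outlying. The array number limits the precision.

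Outlying spots were left out (66 of 55681 probes had no value left), spots of a probe averaged, and log2 intensity minus the 75th percentile of the array was tested with limma 3.58.1 in R 4.3.3 over all genes, with the experiment as a block and Benjamini-Hochberg adjustment. Samples of the same number came from a divided lysate, per the methods, and their deviations from the group means correlated at 0.20. Nothing states that the 2 experiments used separate mice, so p-values measure the spread between these samples. A gene needed a probe well above background on at least 2 arrays and took its brightest. Other work used Python 3.11.15 and RefSeq gene tables (GRCm38.p6) for names and chromosomes only, and 82 of 85 symbols matched. The fits were tested on simulated data.

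The genes named are the 5 highest and 5 lowest members, those called higher, paralogue pairs, the 5 with the widest probe spread, the 3 brightest (Rps14, Rpl34, Rps27), ribosomal proteins outside the symbol rule, the extremes of each other list, Cpeb2 and Gapdh. Some genes that this rule names are not reported here. Other names were picked after their values were seen. Members and lists were chosen with earlier results of these data known.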

Additional observations from a re-analysis of the deposited data

How the results depend on the processing

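Alternatives were another scaling (quantile normalization, median centring, none, the 75th percentile over probes detected on all arrays, centring within bins of probe GC content), normexp background correction, marked spots kept, no replicate block, an intensity trend in limma, other filters on dim probes, the mean of a gene's probes, and each experiment alone. The family median of −0.68 was −0.41 with quantile normalization, −0.45 with median centring, −0.79 with the percentile over detected probes and −0.51 with GC bins. Part of this is the shift of all genes, whose median was −0.11 and then 0.02, 0.11, −0.22 and −0.04. Relative to all genes the family lay at −0.57, and at −0.43 with quantile normalization and −0.48 with GC bins. Without replicate 1 or replicate 2 in turn the median was −0.60 and −0.74, and the difference between the subunits −0.18 and 0.02, so its sign rested on 1 experiment.

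The 14 higher and 33 lower genes became 16 and 24 with quantile normalization, so that the higher genes were 40.0% of the calls in place of 29.8%. They became 5 and 7 with no filter on dim probes, where 56 members had an unadjusted p under 0.05. Over all genes the calls fell there from 4174 higher and 4021 lower to 2265 and 1837. The member probe counts of 22 and 57 became 0 and 0 with no filter, as did those over all 55615 probes. There 115 member probes had an unadjusted p under 0.05. The members apart from the family fell from 30 to 18 with no filter and rose to 53 with an intensity trend. Over all genes that number went from 8228 to 6462 and 10021. The member probe counts rose to 39 and 103 with the trend and 39 and 95 with normexp. Over all probes, 5228 higher and 6095 lower became 7224 and 8672 with the trend and 6882 and 7650 with normexp. The paired fit was the main one. With no replicate block the counts were 15 and 40 and included all 14 and 33 genes of the paired fit. Of the genes called in the paired fit, 5 higher and 6 lower were called in all 12 alternatives that give a test. With a fold of 2 in place of 1.5, 12 and 29 members passed the study's criteria and their mirror in place of 20 and 45, and with each experiment alone 16 to 23 and 44 to 49 passed. Taking the mean of its probes moved Rpl13a from −0.93 to 0.07. Rpl10, Rpl22l1 and Rps15a, none of them called, changed sign with other scalings. The cause of these changes was not tested. With 2 arrays per antibody, members not called cannot be said to be unchanged.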
